A study of Mus musculus with 12 samples.

Results

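The plasminogen activators and their inhibitors considered here are 5 genes, Plau, Plaur, Plat, Serpine2 and Serpinb2, chosen by name. All probe sets that carry only 1 of these symbols were taken, which gave 6 probe sets, of 34958 probe sets with 1 symbol on the array, for 4 of the 5 genes. Serpine2 had no such probe set and was not analysed here. Plau did not pass the filter on dim probe sets, so 3 of the 5 genes, Plaur, Plat and Serpinb2, were among the 12835 genes tested.

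Plasminogen activators are serine proteases that cut plasminogen into plasmin, an enzyme that dissolves fibrin and other proteins around cells and activates some metalloproteinases. Plau encodes the urokinase-type activator (uPA), Plaur its receptor on the cell surface (uPAR), and Plat the tissue-type activator (tPA), which is also made by cells of the brain. Serpinb2 (PAI-2) and Serpine2 (protease nexin 1) encode serpins, suicide inhibitors that trap such proteases. Urokinase and its receptor are known from invading cells, glioma cells among them.

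The 6 groups hold 2 arrays each, and all cells came from p53-/- mouse brain (BL6 strain, embryonic day 14.5). NSCL61, OPCL61 and ASTL61 are stable lines carrying the oncogenic HRasL61, and NSC (neural stem cells), OPC (oligodendrocyte precursor cells) and AST (astrocytes) are their parents. NSC were grown as floating spheres without serum, OPC were induced from them in PDGFAA, bFGF and 0.25% serum and immunopanned, and AST were induced in 10% serum for 3 weeks. The lines were electroporated with pCMS-EGFP-HRasL61, a plasmid that also carries EGFP, together with pBabe-neo, kept in neomycin at 0.5 mg/ml and sorted for GFP. These steps are not given for the parents, so they and HRasL61 cannot be told apart. Whether a line is 1 clone, and whether the 2 arrays of a group came from separate cultures, is not given in the sources used here, so the p-values measure only the spread between these arrays, which may be technical. Cells were measured in bulk, where fewer cells of a type and less RNA per cell cannot be told apart.

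The 12 arrays had medians of 5.16 to 5.21 (log2 signal). The median of all values, 5.18, is used below as the level under which a signal may be background. The 5 OPC markers had a mean log2 signal of 10.39 to 10.60 in OPC arrays, above those of every other group (5.17 to 7.33). The 7 astrocyte markers did not set AST apart, at 6.16 in both AST arrays against 7.13 to 7.55 in OPC and 6.10 to 6.42 in NSC. Aqp4, Slc1a2 and Aldh1l1 were under 5.18 in both AST arrays. The NSC arrays held the 7 fibroblast and pericyte genes (Col1a1, Col1a2, Thy1, Pdgfrb, Acta2, Dcn and Lum) at a mean of 10.87 to 11.27, against 8.46 to 8.97 in AST and 4.72 to 4.81 in OPC. The 7 neural stem cell markers averaged 5.36 to 5.57 in NSC, below all other groups (6.30 to 8.01), and 2 of them, Nes (8.36 and 8.15) and Msi1 (5.86 and 5.73), exceeded 5.18 in both NSC arrays. Sox2, a defining neural stem cell factor, was at 4.41 and 6.79 in NSC, against 10.07 to 11.99 in the other 10 arrays.

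The promoter windows of Plaur and Serpinb2 are shown first, because these are the members whose signal varied most between the arrays. They come from RefSeq (GRCm38.p6, 250 bases before to 50 after the start of transcription, 5′ to 3′ on the gene's strand), where 3 of the 5 genes had a window. Capitals mark a match to TGANTCA, the letters bound by AP-1, a factor made of Fos and Jun proteins. The Plaur window is chr7:24462233-24462532, plus strand, and the Serpinb2 window is chr1:107511173-107511472, plus strand.
Plaur: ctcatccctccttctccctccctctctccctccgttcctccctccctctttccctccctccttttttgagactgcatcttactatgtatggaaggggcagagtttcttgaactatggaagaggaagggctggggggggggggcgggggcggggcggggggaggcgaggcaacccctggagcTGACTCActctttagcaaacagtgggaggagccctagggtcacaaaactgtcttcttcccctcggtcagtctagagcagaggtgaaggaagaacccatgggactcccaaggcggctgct
Serpinb2: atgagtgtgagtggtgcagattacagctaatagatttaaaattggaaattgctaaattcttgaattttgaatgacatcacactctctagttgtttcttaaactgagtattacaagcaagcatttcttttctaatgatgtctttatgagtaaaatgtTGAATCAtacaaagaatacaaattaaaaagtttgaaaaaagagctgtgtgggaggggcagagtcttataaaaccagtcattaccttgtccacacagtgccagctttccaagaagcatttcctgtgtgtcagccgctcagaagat
The AP-1 letters began 69 bases before the start in Plaur and 94 bases before it in Serpinb2. Searched on both strands, they occurred in 7.81% of the 32851 windows of that table. The Plaur window held 3 matches to GGGCGG, the letters of Sp1, which occurred in 35.7% of all windows, and no TATAAA. The Serpinb2 window held TATAAA, the letters of a TATA box, 29 bases before its start, letters that occurred in 13.6% of all windows, and no match to Sp1. Such a match describes the letters only.

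Plaur, the receptor for urokinase, was near background in oligodendrocyte precursors and high in all other groups. It rose in the stem cell line and the precursor line. In the astrocyte line, where 3 of the 12835 genes passed in either direction, it did not pass the test. Both that line and its parent had a high Plaur signal. Plat was high in every array and did not pass the test in any line. Serpinb2 was either high or near background from one array to the next, and Plau was dim throughout. The plot of the member genes by array shows these 4 patterns.

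**Figure D1:**
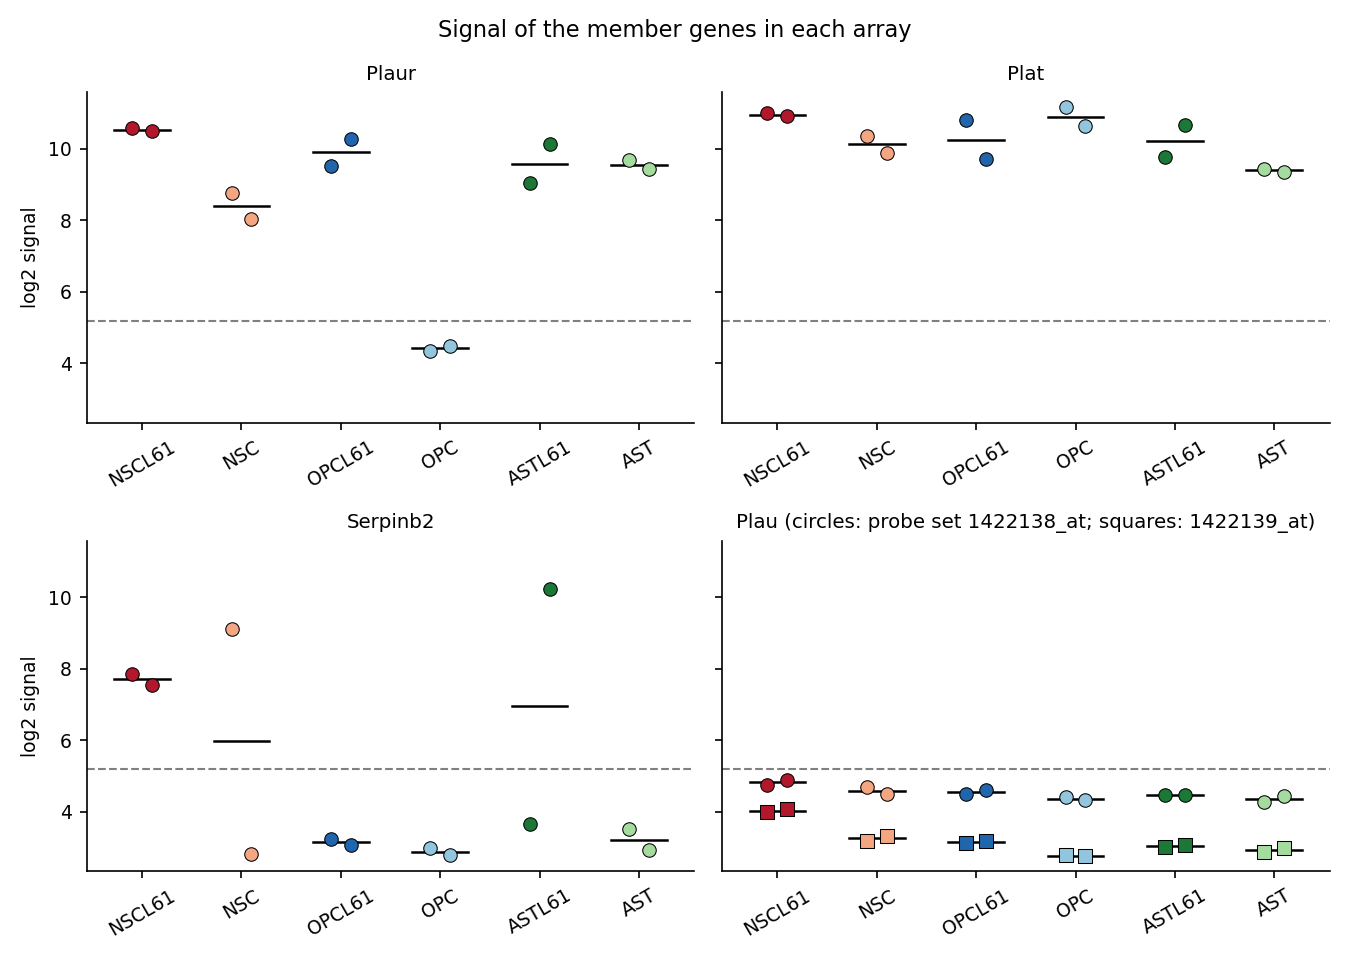
Log2 signal of Plaur, Plat, Serpinb2 and both Plau probe sets in each array (points; replicate 1 left, replicate 2 right), with group means (bars) and the median of all values, 5.18 (dashed line). Plaur is under the line only in the 2 OPC arrays, Serpinb2 is split in NSC and ASTL61, and Plau is under the line in every array.

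Plaur (probe set 1452521_a_at) had 9.52 and 10.27 log2 signal in OPCL61, against 4.35 and 4.48 in OPC. Both OPC arrays lay under 5.18, and the groups were far apart. The rise was 5.48 ± 0.37 (log2 difference ± SE, limma adjusted p = 3.61e-06), a 44.8-fold difference that may be a lower bound, since the OPC signal may be background.

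In the stem cell line, Plaur had 10.58 and 10.48, against 8.77 and 8.02 in NSC. The groups did not overlap, and the rise was 2.13 ± 0.37 (limma adjusted p = 0.00173), or 4.39-fold. The fibroblast and neural stem cell markers also differed between these groups, and their part in this rise was not tested. In the astrocyte line Plaur had 9.03 and 10.12, against 9.67 and 9.43 in AST. The ASTL61 arrays lay on either side of the AST arrays, and the difference was 0.02 ± 0.37 (limma adjusted p = 0.996, 95% interval -0.81 to 0.85).

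The size of the Plaur change differed between the lines. It was larger in OPCL61 than in NSCL61 by 3.35 ± 0.52 (limma adjusted p = 9.21e-04) and larger in OPCL61 than in ASTL61 by 5.46 ± 0.52 (limma adjusted p = 7.53e-05). It was smaller in ASTL61 than in NSCL61, with a difference of -2.11 ± 0.52 (limma adjusted p = 0.0168). That last difference did not pass without NSC replicate 2 (adjusted p = 0.0536), without NSCL61 replicate 1 (0.0577) or without AST replicate 1 (0.0580).

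In order of level, Plaur averaged 4.41 ± 0.09 (SD, n = 2) in OPC, 8.39 ± 0.53 in NSC, 9.55 ± 0.17 in AST, 9.57 ± 0.77 in ASTL61, 9.90 ± 0.53 in OPCL61 and 10.53 ± 0.07 in NSCL61. The OPC level was 3.98 below that of NSC (limma adjusted p = 1.72e-05), and AST exceeded NSC by 1.16 ± 0.37 (limma adjusted p = 0.0405). The AST difference did not pass without NSC replicate 2 (adjusted p = 0.225), AST replicate 1 (0.171) or AST replicate 2 (0.108), with the replicate number as a block (0.0507), or with no filter and every probe set tested by itself (0.0504). The upper neighbours, AST and ASTL61, ASTL61 and OPCL61, and OPCL61 and NSCL61, did not pass the test (limma adjusted p = 0.996, 0.544 and 0.245). The arrays of OPCL61 and NSCL61 did not overlap. The parents thus spanned 5.14 between AST and OPC, while the lines spanned 0.96 between NSCL61 and ASTL61.

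Plat, the tissue-type activator, kept a high signal in all 12 arrays with its main probe set (1415806_at), from 9.35 to 11.16. It had 10.99 and 10.90 in NSCL61, against 10.34 and 9.88 in NSC. It had 10.80 and 9.71 in OPCL61, against 11.16 and 10.63 in OPC. It had 9.77 and 10.65 in ASTL61, against 9.42 and 9.35 in AST. The arrays overlapped in OPCL61 and OPC and not in the other pairs.

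None of the 3 Plat differences passed the test. They were 0.83 ± 0.38 in NSCL61 (limma adjusted p = 0.114, 95% interval -0.02 to 1.68), -0.64 ± 0.38 in OPCL61 (limma adjusted p = 0.192, interval -1.49 to 0.21) and 0.82 ± 0.38 in ASTL61 (limma adjusted p = 0.697, interval -0.03 to 1.67). The last was 1.26 without ASTL61 replicate 1 and 0.38 without ASTL61 replicate 2. With only the NSCL61 and NSC arrays in the model the first passed (adjusted p = 0.0219), and without OPCL61 replicate 1 the second passed at -1.19 (adjusted p = 0.0256), as did OPCL61 minus NSCL61 at -1.24 (0.0388). The changes in OPCL61 and NSCL61 differed by -1.48 ± 0.53, with limma adjusted p = 0.0550. This passed with array weights (adjusted p = 0.0346), with a trended and robust prior (0.0499) and without OPCL61 replicate 1 (0.00925). The changes in OPCL61 and ASTL61 differed by -1.46 ± 0.53 (limma adjusted p = 0.0595), which passed with array weights (0.0439) and without OPCL61 replicate 1 (0.0102) or ASTL61 replicate 1 (0.0274).

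Between the parents, Plat was higher in OPC than in AST by 1.51 ± 0.38 (limma adjusted p = 0.00807), or 2.84-fold. The difference was 0.85 with the mean of its probe sets (adjusted p = 0.0157), and the call was lost without OPC replicate 1 (adjusted p = 0.0616). No neighbours in the order of its group means, which ran from AST at 9.39 ± 0.05 to NSCL61 at 10.95 ± 0.07 (SD, n = 2), differed beyond their spread (limma adjusted p of 0.184 to 0.946). The other Plat probe set (1458553_at) stayed between 4.54 and 5.06 in all arrays, under 5.18.

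**Figure D2:**
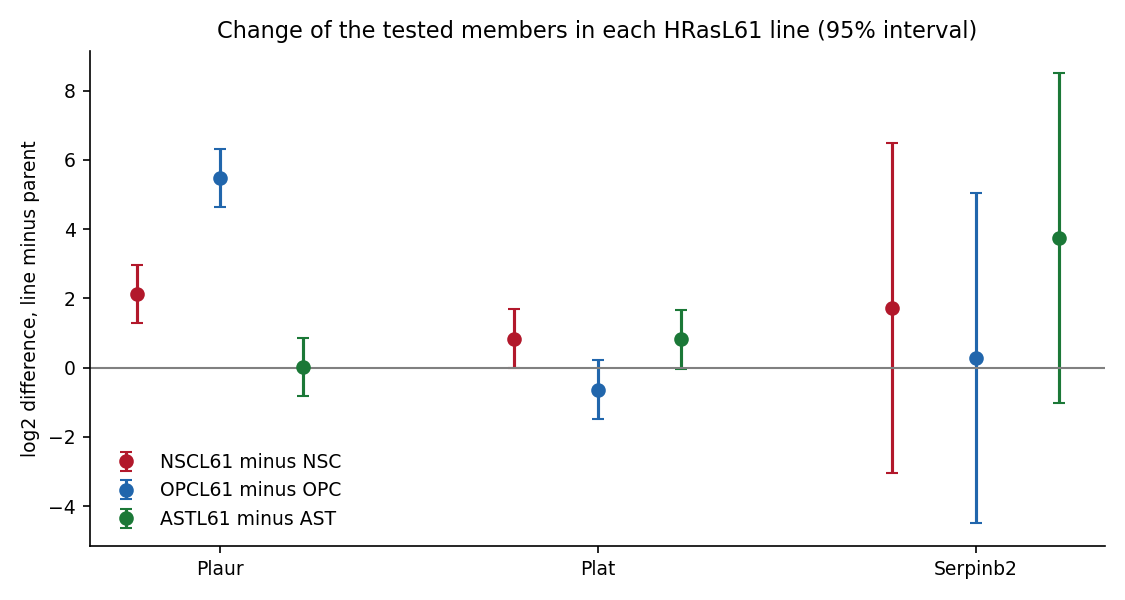
Log2 difference of each HRasL61 line and its parent for the 3 tested members (points) with 95% intervals from limma (bars). The Plaur intervals of NSCL61 and OPCL61 lie above 0, while the Serpinb2 intervals run from -4.49 at the lowest to 8.50 at the highest.

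Serpinb2 (probe set 1419082_at), the serpin that inhibits urokinase, was the member with the widest range, from 2.78 to 10.23. It had 7.86 and 7.54 in NSCL61, against 9.11 and 2.82 in NSC. It had 3.67 and 10.23 in ASTL61, against 3.50 and 2.92 in AST. It had 3.22 and 3.08 in OPCL61, against 2.97 and 2.78 in OPC. The gene was thus high in both NSCL61 arrays, in 1 of 2 NSC arrays and in 1 of 2 ASTL61 arrays, and near background in the other 8.

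No Serpinb2 difference between a line and its parent passed the test. The log2 differences were 1.73 ± 2.12 in NSCL61 (limma adjusted p = 0.572), 0.28 ± 2.12 in OPCL61 (0.928) and 3.74 ± 2.12 in ASTL61 (0.758). This SE pools all 6 groups, with an SD of 4.45 in NSC and 4.64 in ASTL61, against 0.10 in OPCL61 and 0.13 in OPC. The OPCL61 and OPC arrays did not overlap, and all were under 5.18. Without NSC replicate 2 the NSCL61 difference was -1.42 and without NSC replicate 1 it was 4.87, so its direction rested on 1 array. For Serpinb2 in ASTL61 the difference was 7.02 without replicate 1 and 0.46 without replicate 2. Without NSC replicate 2, OPC was lower than NSC (log2 difference -6.24, adjusted p = 0.0313), and without ASTL61 replicate 1, OPCL61 was lower than ASTL61 (-7.08, adjusted p = 0.0259). The arrays of NSCL61 and OPCL61 were each close together, with a difference of -4.55 in OPCL61 minus NSCL61 (limma adjusted p = 0.147). With only those 2 groups in the model the SE was 0.157, against 2.12 with all 12 arrays, and the adjusted p was 3.36e-04.

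The gap between replicates was larger for Serpinb2 than for any other of the 12835 genes, both in NSC (6.29) and in ASTL61 (6.56). The median gap over genes was 0.175 in NSC and 0.178 in ASTL61. Only 6 genes were higher in NSC replicate 1 than in replicate 2, and in ASTL61 replicate 2 than in replicate 1, by more than 2 in both, of 45 genes in NSC and 27 in ASTL61. They were Serpinb2, the metalloproteinases Mmp3 and Mmp13, Rgs5, a regulator of G protein signalling, Nptx1, a neuronal pentraxin, and Crct1, and this step of 2 was chosen after the values were seen. Mmp13 was higher by 3.92 in NSC replicate 1 and by 3.50 in ASTL61 replicate 2, and Mmp3 by 2.70 and 3.59.

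An array control for the 5′ end of 18S rRNA was lower in the array with high Serpinb2 in both groups. It was at 8.72 in the high ASTL61 array and 10.29 in the low one, and at 7.91 in the high NSC array and 12.13 in the low one. In NSCL61 and OPC its arrays were also far apart, at 8.06 and 11.67 and at 8.71 and 12.59, where the Serpinb2 arrays differed by 0.32 and 0.19. The part of this control in the Serpinb2 split was not tested. The gap between the 3′ and 5′ probe sets of Gapdh, a sign of RNA integrity, was -0.28 to -0.09 in all 12 arrays. The mean of the fibroblast and pericyte genes was also higher in the array with high Serpinb2 in both groups, at 9.48 against 9.28 in ASTL61 and at 11.27 against 10.87 in NSC. Dcn, the proteoglycan decorin, was at 10.50 in the high and 8.27 in the low ASTL61 array, and at 9.44 in the high and 8.54 in the low NSC array. Lum (lumican) was at 7.65 in the high and 5.30 in the low NSC array. Other genes of the list went the other way. Col1a2, Thy1, Pdgfrb and Acta2 were lower in the high than in the low ASTL61 array. Col1a1, Thy1 and Acta2 were lower in the high than in the low NSC array. The part of these markers in the Serpinb2 split was not tested.

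**Figure D3:**
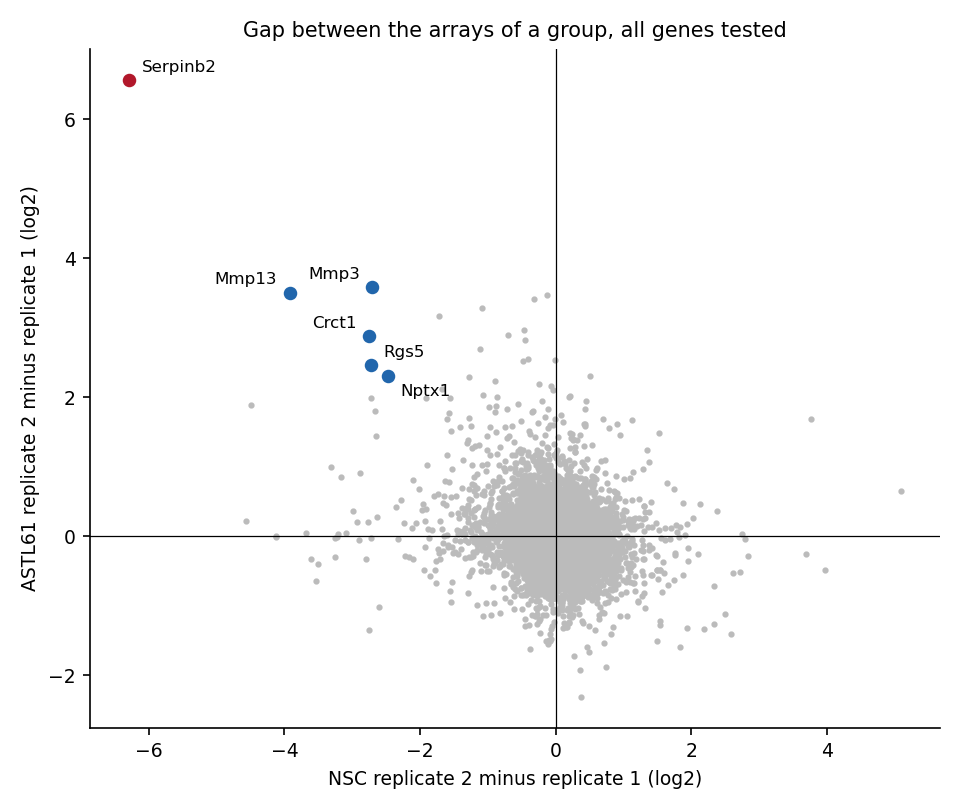
Difference between the 2 arrays of a group (replicate 2 minus replicate 1, log2) in NSC (horizontal) and ASTL61 (vertical) for the 12835 genes tested (grey). Serpinb2 (red) lies farthest out in both, and the 5 named blue genes share its direction with gaps over 2.

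Plau, which encodes urokinase itself, was under 5.18 in every array with both of its probe sets and was not among the genes tested. Probe set 1422138_at had 4.74 and 4.89 in NSCL61, against 4.69 and 4.48 in NSC. Probe set 1422139_at had 3.99 and 4.07 in NSCL61, against 3.19 and 3.32 in NSC. In the remaining 8 arrays it was at 2.75 to 3.17, so that NSCL61 had the highest values.

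With no filter and every probe set tested by itself, a setting chosen after seeing the data, probe set 1422139_at was higher by 0.77 in NSCL61 (limma adjusted p = 3.83e-04, over 34945 probe sets) and by 0.39 in OPCL61 (adjusted p = 0.0136). Its difference in ASTL61 was 0.11 (adjusted p = 0.904). The other probe set gave 0.23, 0.18 and 0.10 with adjusted p = 0.202, 0.276 and 0.932. At these levels the signal may be background, so no statement on the level of Plau is made.

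Of the 3 members tested, 1 (Plaur) passed as higher in NSCL61, where 20.7% of all genes did, and 1 (Plaur) in OPCL61, where 24.5% did. In ASTL61 0 of 3 passed by limma, where 0.0234% of all genes passed in either direction, and 0 of 3 had an unadjusted p under 0.05, as 7.33% of all genes did. The count of genes past the adjusted threshold there was 3, but 102 without ASTL61 replicate 1, 17 without AST replicate 1, 1 without ASTL61 replicate 2 and 0 without AST replicate 2. Against the other lines, the Plaur change was larger in OPCL61 than in NSCL61 where 18% of genes were, larger in OPCL61 than in ASTL61 where 17.1% were, and smaller in ASTL61 than in NSCL61 where 12.9% were. Among the parents, Plaur was lower in OPC than in NSC, as were 24.3% of genes, lower in OPC than in AST, as were 25.6%, and higher in AST than in NSC, as were 15.4%. Plat was higher in OPC than in AST, as were 26.1% of genes. These shares are large, so a single call says little about the members. Between the lines, 0 of 3 members passed by limma in any pair. In OPCL61 against NSCL61, ASTL61 against NSCL61 and OPCL61 against ASTL61, 26.7%, 32.7% and 36.6% of all genes passed in either direction. The Plaur difference in ASTL61 against NSCL61 was -0.96 ± 0.37 (limma adjusted p = 0.0764). It passed with array weights (0.0308) and without ASTL61 replicate 2 (0.0146).

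Markers of other cells that can make these proteins were mostly dim. The 7 microglia and macrophage genes had a mean log2 signal of 4.42 to 4.49 in NSCL61, against 4.08 to 4.09 in NSC, and of 4.51 to 4.53 in OPCL61, against 3.95 to 4.0 in OPC. Aif1, Ptprc, Itgam, Cx3cr1 and Tyrobp were under 5.18 in all 12 arrays. Cd68, a lysosomal protein of macrophages, had 7.31 and 6.62 in NSCL61, against 4.43 and 4.40 in NSC, and 7.86 and 7.26 in OPCL61, against 4.45 and 4.24 in OPC. In ASTL61 it had 4.99 and 6.32, against 4.60 and 4.74 in AST. Cd68 was thus higher in every line than in its parent, but in ASTL61 it exceeded 5.18 in replicate 2 only. Its part in the Plaur rises was not tested. Csf1r was between 5.91 and 6.37 in all arrays. The 5 endothelial genes averaged 4.26 to 4.66 in all arrays, with Pecam1, Cdh5, Tek and Cldn5 under 5.18 in each. Kdr, a VEGF receptor, exceeded 5.18 in all 12 arrays, with 7.04 and 6.95 in NSCL61, against 6.67 and 5.92 in NSC, and its part in the Plaur rise was not tested.

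The genes whose signal followed Plaur most closely over the 12 arrays were Fosl1, a Fos-family subunit of AP-1 (Pearson r = 0.992), Mast4, a kinase (r = 0.991), and Frrs1 (r = 0.988). Fosl1 had 11.16 and 10.89 in NSCL61, against 8.91 and 8.81 in NSC. It had 10.09 and 10.45 in OPCL61, against 4.74 and 5.22 in OPC, and 9.98 and 11.09 in ASTL61, against 10.21 and 10.13 in AST. As for Plaur, the groups overlapped in ASTL61 and AST and not in the other pairs.

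For Serpinb2 the closest genes were Mmp13, collagenase 3 (r = 0.922), Rarres1 (r = 0.908) and Crct1 (r = 0.897). Mmp13 had 7.88 and 7.04 in NSCL61, against 7.68 and 3.76 in NSC, and 4.04 and 7.55 in ASTL61, against 3.90 and 3.27 in AST. It was thus high in the same 4 arrays as Serpinb2. In OPCL61 Mmp13 had 5.59 and 3.53, against 2.70 and 2.71 in OPC, where Serpinb2 stayed near background.

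For Plat the closest were Cwc25, a splicing factor (r = 0.926), Zscan18 (r = 0.881) and Slc37a4, the glucose 6-phosphate transporter (r = 0.877). Among the members, r was -0.278 for Plaur and Plat, 0.440 for Plaur and Serpinb2 and 0.410 for Plat and Serpinb2. These values of r describe 12 arrays that share 6 groups, and no test is given for them.

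**Figure D4:**
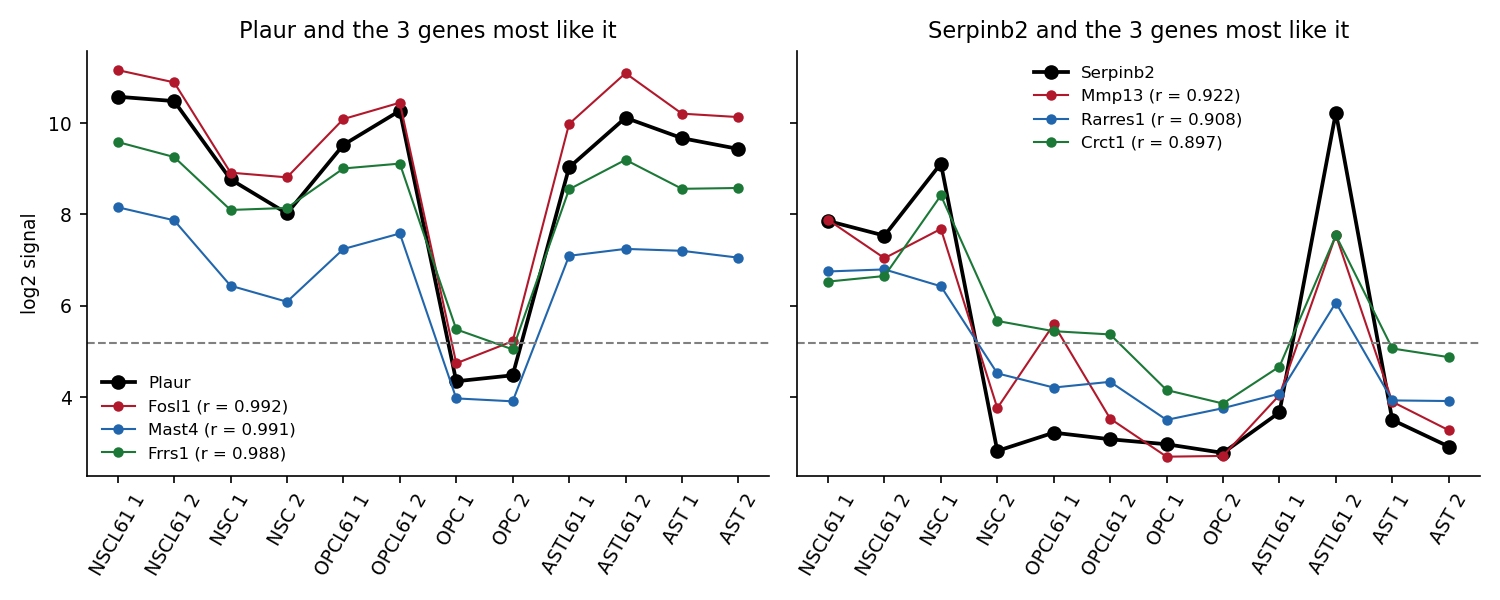
Log2 signal in the 12 arrays of Plaur (left) and Serpinb2 (right) in black with the 3 genes most like each by Pearson r (colours); lines only join the points of a gene, and the dashed line is the median of all values, 5.18. Plaur and Fosl1 both dip in the 2 OPC arrays, and Serpinb2 and Mmp13 are both high in NSC replicate 1 and ASTL61 replicate 2.

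Around the members stands a list of 39 other genes of the plasminogen system, of which 35 had a probe set and 26 were tested. In NSCL61, 2 of 26 rose, 8 fell and 16 did not pass, where 20.7% of all genes rose and 17.1% fell, and the median log2 difference of the list was -0.0603, against 0.0358 over all genes. In OPCL61, 10 rose, 3 fell and 13 did not pass, where 24.5% of all genes rose and 23.9% fell, and the median was 0.577, against 0.0472 over all genes. In ASTL61, 0 of 26 passed by limma and 5 had an unadjusted p under 0.05 (19.2%, against 7.33% of all genes), with a median of 0.185, against 0.00132 over all genes.

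Among the receptors and clearance genes, 7 of 13 rose and 2 fell in OPCL61, where 24.5% of all genes rose and 23.9% fell. In NSCL61, 1 of 13 rose and 5 fell, where 20.7% of all genes rose and 17.1% fell. Anxa2, the annexin that binds plasminogen and tPA at the cell surface, had 12.98 and 13.32 in OPCL61, against 7.42 and 6.42 in OPC, a rise of 6.23 ± 0.28 (limma adjusted p = 3.35e-07), or of 2.30 with the mean of its probe sets. Its partner S100a10 averaged 12.10 in OPCL61, against 9.24 in OPC, where its arrays were at 9.85 and 8.62, a rise of 2.86 ± 0.32. Like Plaur, both were lowest in OPC. Neither passed in NSCL61 (0.15 and 0.20) or ASTL61 (0.18 and 0.19).

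Lrp1, the endocytic receptor that clears complexes of activators with their serpins, fell in both lines. It had 7.18 and 6.62 in NSCL61, against 9.38 and 9.22 in NSC, a log2 difference of -2.40 ± 0.38 (limma adjusted p = 9.93e-04), or of -1.51 with the mean of its probe sets. In OPCL61 it had 6.69 and 5.59, against 7.58 and 8.51 in OPC, a difference of -1.90 ± 0.38 (limma adjusted p = 0.00245). Its chaperone Lrpap1 fell by 0.75 in OPCL61 (by 1.15 with the mean of its probe sets) and by 0.63 in NSCL61. In ASTL61 Lrp1 was at 0.02 and Lrpap1 at 0.23, and neither passed.

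Sorl1, a sorting receptor of the same family, rose by 2.36 ± 0.30 in NSCL61 and was at 0.46 in OPCL61 and -0.46 in ASTL61, where it did not pass. Mrc2, a collagen receptor that associates with uPAR, is named because of its values, outside the rule for naming genes. It fell by 2.22 ± 0.15 in NSCL61 (limma adjusted p = 4.98e-06) and rose by 1.83 ± 0.15 in OPCL61 (limma adjusted p = 1.03e-05).

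Among the other inhibitors, Serpini1, the neural serpin that inhibits tPA, had 7.81 and 7.41 in NSCL61, against 6.21 and 4.92 in NSC, a rise of 2.05 ± 0.35 (limma adjusted p = 0.00161), or of 1.21 with the mean of its probe sets. It was at -0.22 in OPCL61 and 0.30 in ASTL61 and did not pass there. Serpinb6a, an intracellular serpin, had 9.73 and 10.30 in OPCL61, against 6.19 and 6.31 in OPC, a rise of 3.76 ± 0.18 (limma adjusted p = 4.84e-07), and was at -0.50 in NSCL61 and 0.04 in ASTL61. A2m, the broad protease trap alpha-2-macroglobulin, fell by 2.49 ± 0.34 in OPCL61, and was at 0.02 in NSCL61 and -0.14 in ASTL61. Serpinf1, a serpin that does not inhibit proteases, fell by 6.35 ± 0.38 in NSCL61 and was at 0.52 in OPCL61 and 1.23 in ASTL61.

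Among proteases that act with plasmin, Mmp2 and its membrane-bound activator Mmp14 changed by -5.23 ± 0.38 and -3.65 ± 0.29 in NSCL61. Neither passed in OPCL61 (-0.86 and 0.25) or ASTL61 (1.11 and 0.46). Mmp3 had 7.27 and 8.65 in OPCL61, against 4.51 and 3.80 in OPC, a rise of 3.81 ± 1.18 (limma adjusted p = 0.0235), and it was at -0.04 in NSCL61 and 3.20 in ASTL61. The Mmp3 call was lost without OPC replicate 1 (adjusted p = 0.0599), OPC replicate 2 (0.112) or OPCL61 replicate 2 (0.124). Plg, plasminogen itself, was measured but not tested, since no group mean exceeded 5.18.

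The fibroblast and pericyte genes moved with the falls in NSCL61. Their mean was 4.76 to 4.80 in NSCL61, against 10.87 to 11.27 in NSC, 3 of 7 exceeded 5.18 in both NSCL61 arrays and 7 of 7 in both NSC arrays. The neural stem cell markers averaged 7.85 to 7.98 in NSCL61, against 5.36 to 5.57 in NSC. The part of both lists in the falls of Mmp2, Mmp14, Serpinf1 and Lrp1 was not tested. Nor was their part in the rises of Plaur, Sorl1 and Serpini1 in NSCL61. In OPCL61 the mean of the fibroblast and pericyte genes was 4.54 to 4.80, against 4.72 to 4.81 in OPC. The OPC markers had a mean of 6.90 to 7.33 in OPCL61, against 10.39 to 10.60 in OPC. Their part in the rises there was not tested. In ASTL61 the fibroblast and pericyte genes averaged 9.28 to 9.48, against 8.46 to 8.97 in AST. The part of these genes in the ASTL61 differences of the plasminogen system list was not tested.

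**Figure D5:**
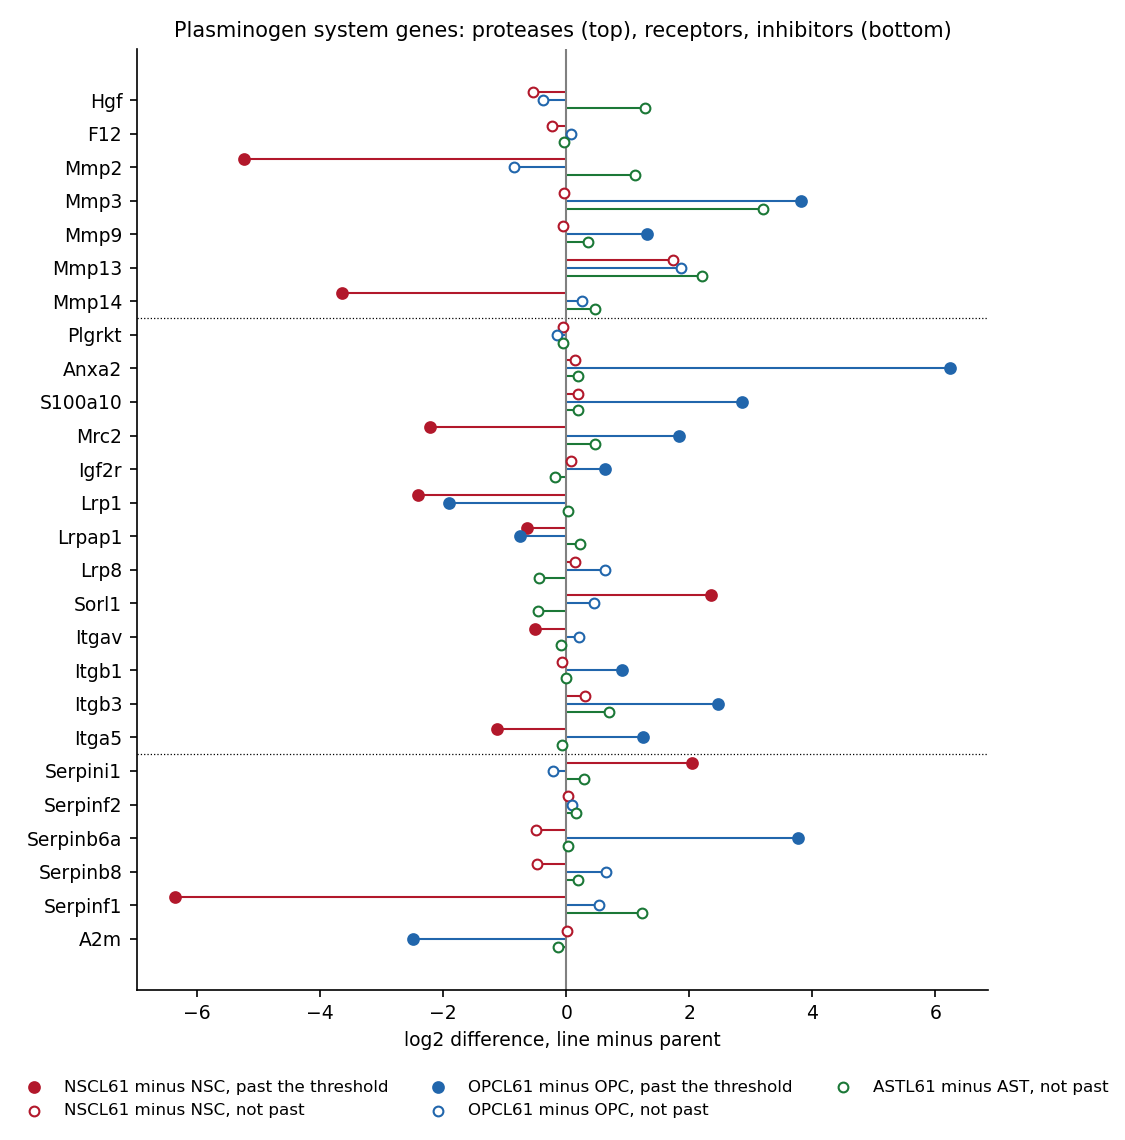
Log2 difference of each line and its parent for the 26 tested genes of the plasminogen system list, other than the members (filled: past limma's adjusted p of 0.05; open: not past). Filled blue points lie mostly right of 0 (10 rises, 3 falls in OPCL61), filled red points mostly left (2 rises, 8 falls in NSCL61), and no ASTL61 point is filled.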

How the data were processed

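Total RNA from 12 samples was labelled with biotin and hybridised to Affymetrix arrays, per the labels' protocols. The authors deposited 1 log2 signal for each of 45101 probe sets, 64 of them array controls, per the file's values. How they corrected background, summarised and normalised the scans is not given in the sources used here. Groups and replicate numbers come from the sample titles, and precision is limited by having 2 arrays a group.

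Symbols were taken from the platform annotation, which gives 1 symbol to 34958 probe sets, several to 932 and leaves the rest unnamed here. For 34754 the Entrez identifier matched RefSeq (GRCm38.p6), which changed 0 symbols. A probe set was kept where a group mean exceeded 5.18, the median of all values, and a gene was represented by its probe set with the highest mean, which left 12835 genes. Hras and Trp53 were not analysed here.

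The 12 arrays entered a model of 6 group means in limma 3.58.1 (R 4.3.3, and version 1.17.8 of data.table), with 6 residual degrees of freedom, 2-sided p-values adjusted by Benjamini-Hochberg over the 12835 genes and a threshold of 0.05. Differences are given ± the moderated SE with 95% intervals. Tested on simulated data for OPCL61 minus OPC over 12835 genes, the model recovered 74% of 50 genes changed by a log2 of 1, 96% of those changed by 2, 98% of those changed by 4 and 96% of those changed by -2. The simulated noise was normal, and each unchanged gene had the same mean and spread in all groups. In the real comparison 6219 genes passed and the spread differed between groups, so these shares may not hold there.

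The members and lists were chosen with earlier results of these data known. The text names the members, up to 4 rises and 4 falls of the plasminogen system list past the threshold per line (given in the other lines too), the 3 genes with the highest Pearson r to each member, leaving out provisional symbols, and marker genes beside a result. The alternatives were quantile normalisation, centring on the median, no filter or a higher one (7.56, the upper quartile), averaged or separate probe sets, array weights, a trended robust prior, a replicate block, only the groups compared, a fold of at least 2, and leaving out each array.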

Additional observations from a re-analysis of the deposited data

Results flagged for a closer look

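The change in Plaur differed between the 3 lines by limma's test of the difference itself, in each of the 3 pairs. It was 3.35 larger on the log2 scale in OPCL61 than in NSCL61 (adjusted p = 9.21e-04), and 5.46 larger in OPCL61 than in ASTL61 (adjusted p = 7.53e-05). The change in ASTL61 minus that in NSCL61 was -2.11 (adjusted p = 0.0168). That last call was lost without NSC replicate 2, NSCL61 replicate 1 or AST replicate 1. The lines' own levels lay within 0.96 of each other, while those of the parents were up to 5.14 apart.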

How the results depend on the processing

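Of 495 values under settings other than leaving out an array, 478 kept their direction and side of the threshold or moved little, and of 216 with an array left out, 178 did. With only the groups compared in the model, Plat passed in NSCL61 minus NSC (0.83, adjusted p = 0.0219, so that 2 members passed) and in AST minus NSC (-0.73, 0.0450), Serpinb2 passed in OPCL61 minus NSCL61 (-4.55, 3.36e-04), and 0 genes passed in ASTL61 minus AST. Array weights made Plaur pass in ASTL61 minus NSCL61 (-0.96, 0.0308), made Plat pass in the change in OPCL61 against NSCL61 (-1.48, 0.0346) and against ASTL61 (-1.46, 0.0439), and gave 5 genes in ASTL61 minus AST. The trended robust prior also passed Plat for OPCL61 against NSCL61 (-1.48, 0.0499). The Plat change in ASTL61 against NSCL61, -0.01, was 0.00829 with quantile normalisation and 0.0114 with the mean of its probe sets. Every probe set by itself gave 8534 calls in NSCL61 minus NSC and 11259 in OPCL61 minus OPC, where more features were tested, and a fold of at least 2 gave 2099 and 2810, against 4851 and 6219. Deviations of same-numbered arrays were weakly correlated over genes (r from -0.196 to 0.105). This cannot show whether such arrays share a batch, which is not given. With the replicate block the only call lost among the members was Plaur in AST minus NSC (1.16, 0.0507).

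With each array left out, genes past the threshold ranged over 3012 to 4099 in NSCL61 minus NSC (lowest without NSCL61 replicate 1) and 0 to 102 in ASTL61 minus AST, and members past it over 1 to 2 in OPCL61 minus OPC. Plaur ranged over -0.52 to 0.56 in ASTL61 minus AST, 0.78 to 1.53 in AST minus NSC, -1.50 to -0.41 in ASTL61 minus NSCL61, -0.22 to 0.87 in OPCL61 minus ASTL61, and -2.66 to -1.57 for the change in ASTL61 against NSCL61. Plat ranged over -1.19 to -0.09 in OPCL61 minus OPC (-0.0926 at the highest), 0.38 to 1.26 in ASTL61 minus AST, 1.24 to 1.77 in OPC minus AST, -1.24 to -0.15 in OPCL61 minus NSCL61 and -0.50 to 0.59 in OPCL61 minus ASTL61. Its changes ranged over -2.02 to -0.93 for OPCL61 against NSCL61, -0.46 to 0.43 for ASTL61 against NSCL61 and -2.01 to -0.91 for OPCL61 against ASTL61. Serpinb2 ranged over -1.42 to 4.87 in NSCL61 minus NSC, -6.24 to 0.052 in OPC minus NSC, -5.90 to 0.39 in AST minus NSC, -4.03 to 2.53 in ASTL61 minus NSCL61 and -7.08 to -0.52 in OPCL61 minus ASTL61. Its changes ranged over -4.60 to 1.69 for OPCL61 against NSCL61 and -1.27 to 5.29 for ASTL61 against NSCL61. The cause of these shifts was not tested. Where an array left out leaves 1 in its group, that array is assumed to vary like the other groups.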
